A study of Mus musculus with 6 samples.

Results

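The MLL and SETD1 complexes place methyl groups on lysine 4 of histone H3. All transcripts of 10 genes that encode their subunits were taken from the deposited escaping index: the methyltransferases Kmt2a, Kmt2b, Kmt2c, Kmt2d, Setd1a and Setd1b, and the shared core subunits Ash2l, Wdr5, Rbbp5 and Dpy30. Symbols came from GENCODE M21 on build mm10. The table held 65 of their transcripts among 68473 in all, and 64 of the 65 had values of their own, since Kmt2a-201 and Kmt2a-202 were identical. A transcript is called outer-start when it begins within 500 bases of the outermost annotated start of its gene, and internal-start otherwise, which gave 26 outer-start and 39 internal-start transcripts. Of the 10 genes, 9 had an outer-start transcript in the table. The transcript at the outermost Dpy30 start was not analysed here, and the 5 measured Dpy30 transcripts begin 7481 to 7741 bases inside it.

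The groups were KO1 and KO2, which are knockouts of Mettl3 (the catalytic subunit of the writer of the RNA mark m6A), and their control, each with 2 libraries of C57BL/6 mouse embryonic stem cells. All were grown in serum with LIF, 3 μM of the GSK3 inhibitor CHIR99021 and 1 μM of the MEK inhibitor PD0325901. In mNET-seq, chromatin is cut with micrococcal nuclease, RNA polymerase II is precipitated, and the RNA fragments it protects, here 35 to 100 nt, are sequenced. The study asked about transcription rate with and without Mettl3. The labels give neither the alleles, nor whether KO1 and KO2 are single clones, nor whether replicates come from different cultures. The p-values thus reflect only how these libraries vary, and that variation may be technical.

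Each methyltransferase of this family is nearly inactive until it binds the core module of WDR5, RBBP5, ASH2L and DPY30, which holds and stimulates its catalytic SET domain. SETD1A and SETD1B lay down most of the trimethylated H3K4 at active promoters, MLL1 and MLL2 (encoded by Kmt2a and Kmt2b) act at selected promoters that include those of developmental genes, and MLL3 and MLL4 (Kmt2c and Kmt2d) place monomethylated H3K4 at enhancers. In mouse embryonic stem cells Wdr5 and Dpy30 are known for roles in self-renewal and in the induction of lineage genes.

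The index is the log2 of a ratio within a transcript, plus a small constant, and a higher value goes with more polymerase signal downstream relative to the start. RNA amount and total polymerase are not what it measures, so neither a gene's expression nor the number of cells can be read from it. Over the 64 member transcripts the control index rose with the genomic span (Pearson's r = 0.88 with the log10 span and Spearman's rho = 0.78, as a description, since transcripts of a gene share sequence), so levels are compared between libraries and not between genes. The median outer-start index over 15956 genes was 3.28 and 3.29 in KO1 and 3.11 and 3.13 in KO2, against 3.59 and 3.59 in control. Replicates correlated across transcripts at r = 0.978 in KO1, 0.979 in KO2 and 0.978 in control. As a ratio, the index cannot check the cell type or the loss of Mettl3. All 9 naive and core pluripotency markers were in the table, as were 4 of 6 feeder fibroblast and 1 of 4 primitive endoderm markers.

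With outer-start transcripts averaged per gene, the index was lower than control in most members, but no member passed the test in any contrast. In the average of KO1 and KO2 against control 8 of 9 members were below control, with a median change of -0.31 on the log2 scale, beside -0.38 over all 15956 genes, of which 79.4% were below control. Called members numbered 0 of 9 by limma, where 14.8% of all genes passed. The same count was 0 of 9 in KO1 (0% of all genes passed), 0 of 9 in KO2 (17.7%) and 0 of 9 in KO1 against KO2 (0%). At an unadjusted p under 0.05, 2 members were lower in the average, Kmt2b and Wdr5, beside 35.4% of all genes. Kmt2b alone was so in KO1 (24.4% of all genes), and the same pair in KO2 (37.1%). In 5 of 9 members (Kmt2a, Kmt2b, Kmt2c, Setd1a and Wdr5) all 4 knockout libraries lay below both controls, as they did in 39.5% of all genes. The median change of the 9 members was -0.20 without KO2 replicate 1 and -0.18 with outer starts taken within 2000 bases. With each library centred on its median it was 0.08, above 0, and Kmt2b, Wdr5 and Setd1b were the members still below 0.

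**Figure D1:**
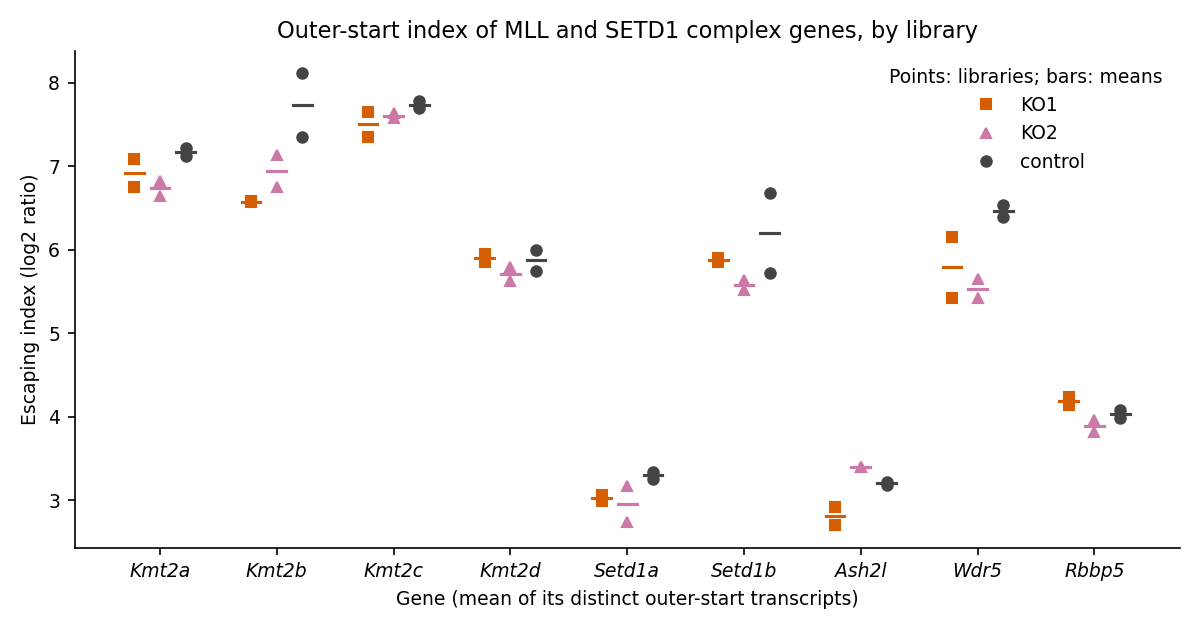
Escaping index (log2 ratio, vertical axis) of the 9 members with outer-start transcripts, for each of the 2 libraries of KO1, KO2 and control (points) with group means (bars). Kmt2a, Kmt2b, Kmt2c, Setd1a and Wdr5 had all 4 knockout libraries below both controls, as had 39.5% of all genes. Kmt2d and Rbbp5 stayed within 0.3 of the control mean, and the controls of Kmt2b and Setd1b lay far apart.

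Among the MLL-type methyltransferases, Kmt2b (chromosome 7, 30568858 to 30588726, minus strand) had the lowest knockout index relative to control. Its outer-start index was 6.57 and 6.58 in KO1 and 7.14 and 6.75 in KO2, against 7.35 and 8.11 in control. The knockout libraries all lay below both controls, and the controls differed from each other by more than any other pair of replicates of this gene. The change was -1.15 ± 0.30 in KO1 (SE; limma adjusted p = 0.0911), -0.79 ± 0.30 in KO2 (0.118) and -0.97 ± 0.26 in the average (0.0606), none of which passed. Without control replicate 2 the average change was -0.59, and without control replicate 1 it was -1.35. With protein-coding genes alone in the fit, and likewise with the outermost start taken among protein-coding transcripts, the average change passed (limma adjusted p = 0.0448 and 0.0442). In those fits 3276 of 12142 and 3346 of 12265 genes passed. With each library centred on its median the average change of Kmt2b was -0.59 (0.263), and after quantile normalization -0.54 (0.285), neither of which passed.

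Kmt2b transcripts that begin further in differed in the sign of their change. Kmt2b-206, which codes for protein and begins 3386 bases inside the gene, had an index of 4.11 and 4.09 in KO1 and 4.13 and 4.07 in KO2, against 3.81 and 3.76 in control. All 4 knockout libraries lay above both controls, and the average change of 0.31 ± 0.14 did not pass (SE; limma adjusted p = 0.188). The 5 Kmt2b models further in (4 of them retained introns) had an index below 0 in all 6 libraries. The index windows are not given, so this is not read as less polymerase signal per base downstream. Their average changes lay between -0.29 and 0.74, and none of the 5 passed.

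Kmt2a, Kmt2c and Kmt2d differed less from control. Kmt2a (chromosome 9, 44803355 to 44881296, minus strand) had an outer-start index of 7.09 and 6.75 in KO1 and 6.83 and 6.65 in KO2, against 7.12 and 7.22 in control, an average change of -0.34 ± 0.17 (SE; limma adjusted p = 0.205). It overlaps Gm48314 by 2739 bases on the same strand, whose reads may not be separated from its own, and the antisense gene AC061963.1. Kmt2c (chromosome 5, 25271798 to 25498783, minus strand), the longest of the 10 genes with a span of 226986 bases, had 7.35 and 7.65 in KO1 and 7.57 and 7.64 in KO2, against 7.69 and 7.78 in control. It overlaps Gm20432 by 250 bases on the same strand, and Gm42585 (4020 bases) and pseudogenes on the other, whose reads may not be separated. The noncoding gene 4831440E17Rik starts 284 bases upstream and runs the other way. The Kmt2c knockout libraries did not overlap the controls, but the average change of -0.18 ± 0.17 was about as large as its error (SE; limma adjusted p = 0.467). It was -0.11 without KO1 replicate 1, and 0.20 with each library centred on its median. Its internal-start transcript Kmt2c-208, 198708 bases in, had 1.75 and 1.71 in KO1 and 2.40 and 2.13 in KO2, against 2.56 and 2.76 in control (average -0.66 ± 0.17, SE; limma adjusted p = 0.0657). There the 4 knockout libraries were below both controls. Kmt2d (chromosome 15, 98831669 to 98871204, minus strand) had an outer-start index of 5.85 and 5.95 in KO1 and 5.80 and 5.63 in KO2, against 5.75 and 6.00 in control. The groups overlapped, and the average change of -0.07 had a 95% interval from -0.44 to 0.31 in the moderated fit.

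Among the SETD1-type methyltransferases, neighbouring starts of Setd1b gave changes of opposite sign. Setd1b (chromosome 5, 123142193 to 123168629, plus strand) had an outer-start index of 5.91 and 5.85 in KO1 and 5.52 and 5.64 in KO2, against 6.68 and 5.72 in control. Control replicate 1 stood apart from control replicate 2, and KO1 overlapped the controls. The average change of -0.47 ± 0.28 did not pass (SE; limma adjusted p = 0.275), and it was 0.01 without control replicate 1 and -0.95 without control replicate 2. Setd1b-201, a protein-coding transcript that begins 764 bases further in, differed from control in the other direction. Its index was 4.11 and 4.18 in KO1 and 4.07 and 4.18 in KO2, against 3.49 and 3.29 in control, so that all 4 knockout libraries were above both controls. On the linear scale the ratio was 17.3 and 18.1 in KO1 and 16.8 and 18.1 in KO2, against 11.2 and 9.81 in control. The index of Setd1b-201 rose by 0.74 ± 0.15 in the average (SE; limma adjusted p = 0.0438), while the changes of 0.75 in KO1 and 0.73 in KO2 did not pass alone (0.0891 and 0.0527). Centred on library medians the average change was 1.02 (adjusted p = 0.0844). The retained-intron model Setd1b-205, 20516 bases in, had 3.00 and 2.45 in KO1 and 2.14 and 2.72 in KO2, against 1.82 and 1.53 in control, and did not pass (0.0834). The noncoding gene Gm26745 covers all 26437 bases of Setd1b on the opposite strand. Whether strand was used in counting is not given, so reads of the 2 genes may not be separated.

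Setd1a (chromosome 7, 127776670 to 127800122, plus strand) is annotated with starts 719 bases apart, and RefSeq places its start at the inner of these. Its promoter window is shown because transcripts from that start count as internal by the rule although it is the only Setd1a start in the RefSeq table used. The 300 bases run from 250 before to 50 after the RefSeq start, on the gene's strand (GRCm38.p6, chr7:127777139-127777438, plus strand), with CpG dinucleotides in capitals.
Setd1a: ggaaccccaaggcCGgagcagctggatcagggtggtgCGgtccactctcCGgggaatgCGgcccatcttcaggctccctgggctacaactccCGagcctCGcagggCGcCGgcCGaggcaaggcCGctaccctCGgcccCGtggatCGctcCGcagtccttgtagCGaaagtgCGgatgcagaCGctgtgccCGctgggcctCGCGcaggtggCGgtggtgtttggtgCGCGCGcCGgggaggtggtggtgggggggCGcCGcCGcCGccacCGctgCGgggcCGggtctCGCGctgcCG
Averaged over Setd1a-201 and Setd1a-206, the outer-start index was 3.00 and 3.06 in KO1 and 2.75 and 3.18 in KO2, against 3.26 and 3.35 in control (average change -0.31 ± 0.18, SE; limma adjusted p = 0.256). Setd1a-202, from the start shown, had an index of 6.34 and 6.22 in KO1 and 6.17 and 6.55 in KO2, against 6.63 and 7.00 in control. Setd1a-201, from the outermost start, had 4.60 and 4.67 in KO1 and 4.45 and 4.92 in KO2, against 4.94 and 5.05 in control. At both starts all 4 knockout libraries lay below both controls. The average changes of -0.49 ± 0.20 and -0.34 ± 0.18 did not pass (SE; limma adjusted p = 0.157 and 0.272). Setd1a shares 14515 bases with Gm49388, a protein-coding model on the same strand, so its values may include reads of that model.

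Of the core subunits, Wdr5 (chromosome 2, 27515157 to 27536535, plus strand), a WD40 propeller that binds the methyltransferases, had the lowest outer-start index relative to control. Its index was 5.42 and 6.16 in KO1 and 5.42 and 5.65 in KO2, against 6.53 and 6.39 in control. All 4 knockout libraries were below both controls, and the KO1 libraries lay far apart. The change was -0.67 ± 0.28 in KO1 (SE; limma adjusted p = 0.19), -0.92 ± 0.28 in KO2 (0.0705) and -0.80 ± 0.24 in the average (0.0749), none of which passed. The KO1 change was -0.30 without KO1 replicate 1 and -1.04 without KO1 replicate 2, and the average change was -0.41 with centred libraries (0.365). Wdr5-201, the full-length transcript, had a ratio of 99.3 and 167 in KO1 and 99.2 and 116 in KO2, against 217 and 195 in control. Wdr5-203, which begins 4604 bases in, had an index of 5.32 and 5.00 in KO1 and 4.68 and 5.16 in KO2, against 4.97 and 4.94 in control. There KO1 lay above both controls and KO2 on either side of them.

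Rbbp5 (chromosome 1, 132477365 to 132505659, plus strand), a scaffold that joins ASH2L to the methyltransferase, was the member with the smallest average change in the values as deposited. Its outer-start index, over 6 transcripts that begin within 277 bases of each other, was 4.14 and 4.24 in KO1 and 3.96 and 3.82 in KO2, against 4.08 and 3.99 in control. KO1 lay above and KO2 below both controls. The average change was 0.00, with a 95% interval from -0.33 to 0.34. The promoters of Wdr5 and Rbbp5 are shown as those of the core genes with the most negative and the smallest change at their outer starts (250 bases before to 50 after the RefSeq start, GRCm38.p6, CpG in capitals). Wdr5 lies at chr2:27514897-27515196 and Rbbp5 at chr1:132477117-132477416, both on the plus strand.
Wdr5: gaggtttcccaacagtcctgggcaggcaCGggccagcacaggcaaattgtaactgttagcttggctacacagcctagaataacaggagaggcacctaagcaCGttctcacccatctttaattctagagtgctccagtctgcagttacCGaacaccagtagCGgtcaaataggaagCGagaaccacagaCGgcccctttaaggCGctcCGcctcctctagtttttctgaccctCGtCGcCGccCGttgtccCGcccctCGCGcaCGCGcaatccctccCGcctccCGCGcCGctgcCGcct
Rbbp5: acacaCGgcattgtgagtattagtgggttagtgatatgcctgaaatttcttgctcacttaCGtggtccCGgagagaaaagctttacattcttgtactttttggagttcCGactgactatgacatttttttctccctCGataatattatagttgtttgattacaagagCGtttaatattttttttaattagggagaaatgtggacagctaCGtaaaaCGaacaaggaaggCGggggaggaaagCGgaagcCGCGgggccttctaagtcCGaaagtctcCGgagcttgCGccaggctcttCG
The Wdr5 window held 22 CpG dinucleotides and the Rbbp5 window 16. The Rbbp5 start lies 301 bases from that of the noncoding gene 6030442K20Rik, which runs the other way.

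Ash2l encodes the subunit that, with DPY30 and RBBP5, stimulates the methyltransferase, and it had 11 transcripts in the table, of which 10 are internal-start. The gene lies on chromosome 8, 25815996 to 25847694, on the minus strand. Ash2l-204, the only transcript from the outermost start, had an index of 2.70 and 2.92 in KO1 and 3.40 and 3.40 in KO2, against 3.19 and 3.22 in control. KO1 was below and KO2 above both controls, and neither change passed (-0.39 ± 0.17 in KO1 and 0.20 ± 0.17 in KO2, SE; limma adjusted p = 0.197 and 0.421).

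The calls in Ash2l came from a cluster of starts further in. Ash2l-201, Ash2l-202, Ash2l-208 and Ash2l-205, which begin 6907, 6924, 6925 and 6932 bases from the outermost start, all fell in the average and in KO2. Ash2l-202, a protein-coding transcript, had an index of 4.15 and 4.24 in KO1 and 4.26 and 4.15 in KO2, against 5.43 and 5.40 in control. Each knockout library was more than 1 below both controls. The ratio was 17.7 and 18.9 in KO1 and 19.1 and 17.7 in KO2, against 43.0 and 42.2 in control. Ash2l-202 fell by 1.21 ± 0.14 in the average (SE; limma adjusted p = 0.0341) and by 1.21 ± 0.16 in KO2 (0.0354), and was at -1.22 ± 0.16 in KO1 without passing (0.0713). Ash2l-201, which GENCODE tags as the principal isoform, fell by 1.02 ± 0.16 in the average (SE; limma adjusted p = 0.0349). These 4 transcripts begin next to each other and share their start signal, so they amount to repeated readings of the same start and not to separate observations.

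No transcript from the starts further downstream passed. Ash2l-203, 7237 bases in, had 3.14 and 2.82 in KO1 and 3.00 and 2.75 in KO2, against 3.55 and 3.53 in control, a change of -0.61 ± 0.17 that did not pass (SE; limma adjusted p = 0.0791). Ash2l-210, 7612 bases in, had 1.32 and 1.52 in KO1 and 1.65 and 1.62 in KO2, against 1.47 and 1.40 in control, with overlap between KO1 and control. The 4 models from 14149 bases on, of which 3 are retained introns, had average changes between -0.36 and 0.10, and none passed.

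Dpy30 (chromosome 17, 74299474 to 74323944, minus strand) encodes the small dimeric subunit that docks on ASH2L. Its 5 measured transcripts, all protein-coding, begin 7481 to 7741 bases inside the outermost start, close to 3 of its 4 RefSeq starts. The promoter windows of the outermost RefSeq start and of an inner start, 7511 bases in, are shown to set the start without a measured transcript beside one whose 3 transcripts within 100 bases (Dpy30-206, Dpy30-201 and Dpy30-205) fell. Both run from 250 bases before to 50 after the start on the gene's strand (GRCm38.p6, minus strand, chr17:74323895-74324194 and chr17:74316384-74316683), with CpG in capitals.
Dpy30 outermost: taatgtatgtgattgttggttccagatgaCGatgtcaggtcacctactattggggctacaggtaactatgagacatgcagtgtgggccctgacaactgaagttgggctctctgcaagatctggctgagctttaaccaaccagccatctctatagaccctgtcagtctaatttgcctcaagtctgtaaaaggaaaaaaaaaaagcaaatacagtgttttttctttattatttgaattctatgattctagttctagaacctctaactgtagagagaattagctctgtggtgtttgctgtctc
Dpy30 inner: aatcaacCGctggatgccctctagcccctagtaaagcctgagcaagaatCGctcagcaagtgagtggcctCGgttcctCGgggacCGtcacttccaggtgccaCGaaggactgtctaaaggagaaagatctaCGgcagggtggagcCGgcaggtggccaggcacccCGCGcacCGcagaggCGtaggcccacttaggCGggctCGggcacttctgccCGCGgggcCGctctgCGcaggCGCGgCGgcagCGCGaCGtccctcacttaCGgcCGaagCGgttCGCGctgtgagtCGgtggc
The inner window held 30 CpG dinucleotides and the outermost 1, and no TATAAA or GGGCGG on either strand was found in either window. CCAAT, searched on both strands, was in the outermost window and not in the inner.

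At the inner Dpy30 starts the index fell in 4 of 5 transcripts in the average. Dpy30-201 had an index of 5.39 and 4.96 in KO1 and 5.39 and 5.55 in KO2, against 6.33 and 6.60 in control. All 4 knockout libraries were below both controls by more than the spread of any group. Its ratio was 41.8 and 31.2 in KO1 and 41.9 and 46.8 in KO2, against 80.6 and 96.8 in control. Dpy30-201 fell by 1.14 ± 0.19 in the average (SE; limma adjusted p = 0.0362) and by 1.00 ± 0.22 in KO2 (0.0483), and was at -1.29 ± 0.22 in KO1 without passing (0.073). Dpy30-205, Dpy30-206 and Dpy30-203 fell by 1.11, 0.97 and 0.72 in the average (limma adjusted p = 0.0365, 0.0448 and 0.0437). Dpy30-204, 7643 bases in, had 4.51 and 4.21 in KO1 and 4.58 and 4.91 in KO2, against 4.96 and 4.91 in control, and did not pass (-0.38 ± 0.18, SE; limma adjusted p = 0.208). The starts of the 5 transcripts lie close together, so these are again not independent readings.

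**Figure D2:**
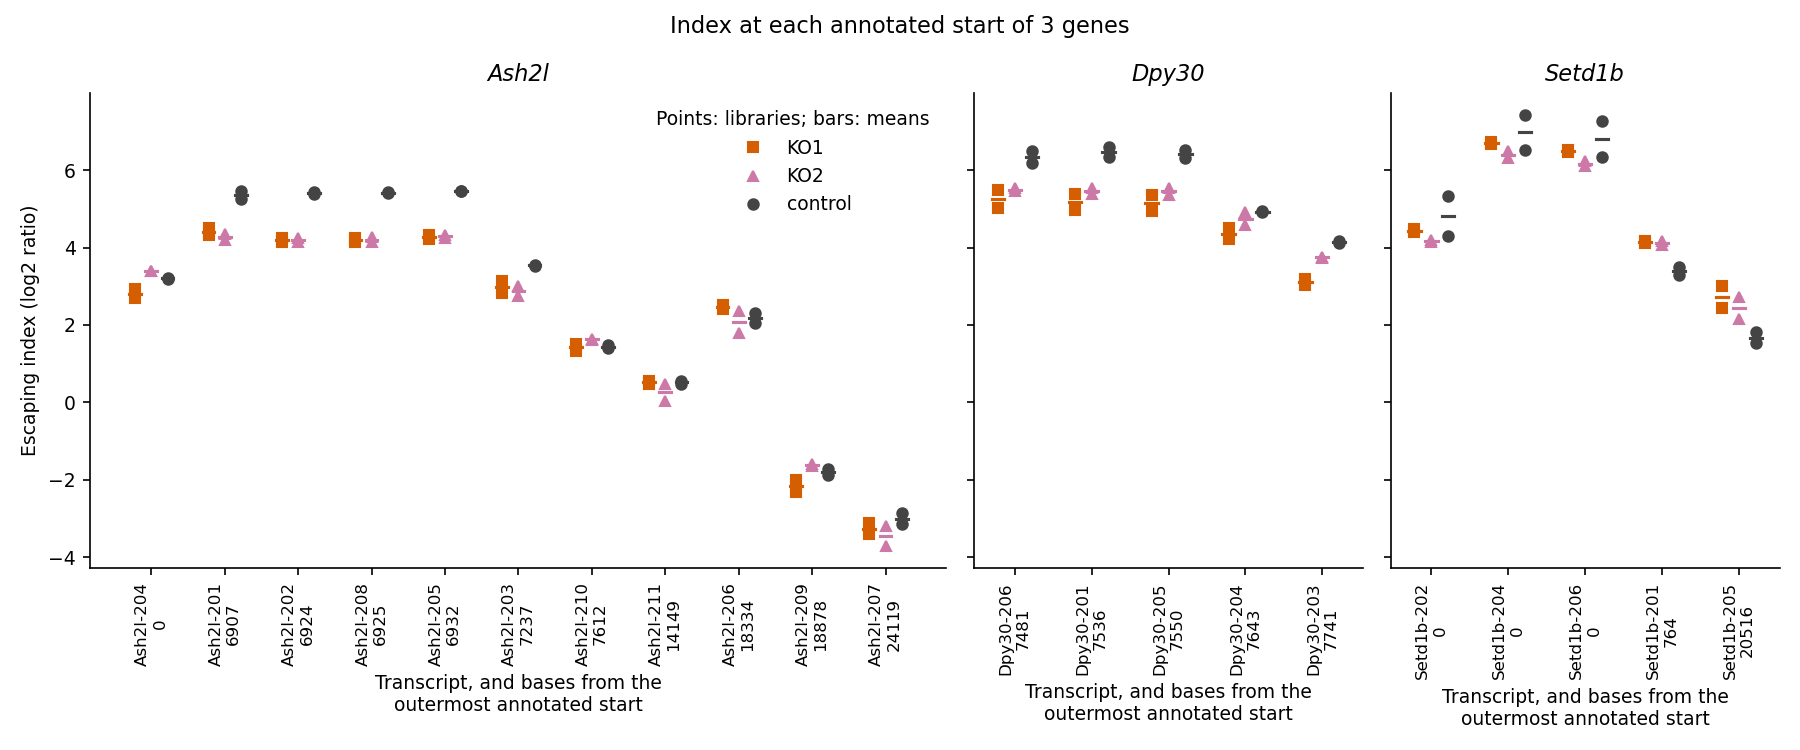
Escaping index (log2 ratio, vertical axis) at each measured start of Ash2l, Dpy30 and Setd1b, ordered by distance in bases from the outermost annotated start, for the 2 libraries of KO1, KO2 and control (points) with group means (bars). The knockouts lay below the controls at the Ash2l starts from 6907 to 7237 bases and at the Dpy30 starts apart from 7643 bases, where a KO2 library reached the controls, and above them at the Setd1b starts of 764 and 20516 bases.

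Over all transcripts fitted singly, 9 of the 64 member transcripts were called in the average of both knockouts by limma, 8 lower (4 of Ash2l and 4 of Dpy30) and 1 higher (Setd1b-201), where 8.15% of all 66944 transcripts were called lower and 0.338% higher. All 9 were internal-start transcripts by the rule. Of 39 internal-start members 20.5% were called lower, beside 3.43% of all internal-start transcripts, and of 25 distinct outer-start members none was, beside 11.6% of all outer-start transcripts (4 of the 25 had an unadjusted p under 0.05). Since the 8 come from clustered starts in 2 genes, these shares do not describe the complex as a whole. The internal-start share may also be an unlike background. Ash2l-201 is tagged as the principal isoform, and Dpy30 had no outer-start transcript in the table. The median change was -0.04 over all internal-start and -0.40 over all outer-start transcripts. With transcripts tagged as principal, a choice made after seeing the data, 2 of 10 members passed in the average, beside 28% of genes. In KO2, 5 of 64 were called lower (Ash2l-201, Ash2l-202, Ash2l-205, Ash2l-208 and Dpy30-201), beside 9.4% of all transcripts. In KO1, 0 of 64 were called, as were 0% of all, while 15 were lower and 3 higher at an unadjusted p under 0.05 (19.8% and 4.18% of all). All 4 knockout libraries lay below both controls in 25 of 64 (31.3% of all transcripts) and above both in 6 of 64 (5.71%). The median change over the 64 was -0.28, against -0.26 over all transcripts, and with library medians centred it was -0.01. With each of the 6 libraries omitted in turn, and after median centring, the calls fell to 0 among the members and in the whole table. The 9 kept their direction throughout, with centred changes of -0.94 for Ash2l-202 and -0.87 for Dpy30-201.

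**Figure D3:**
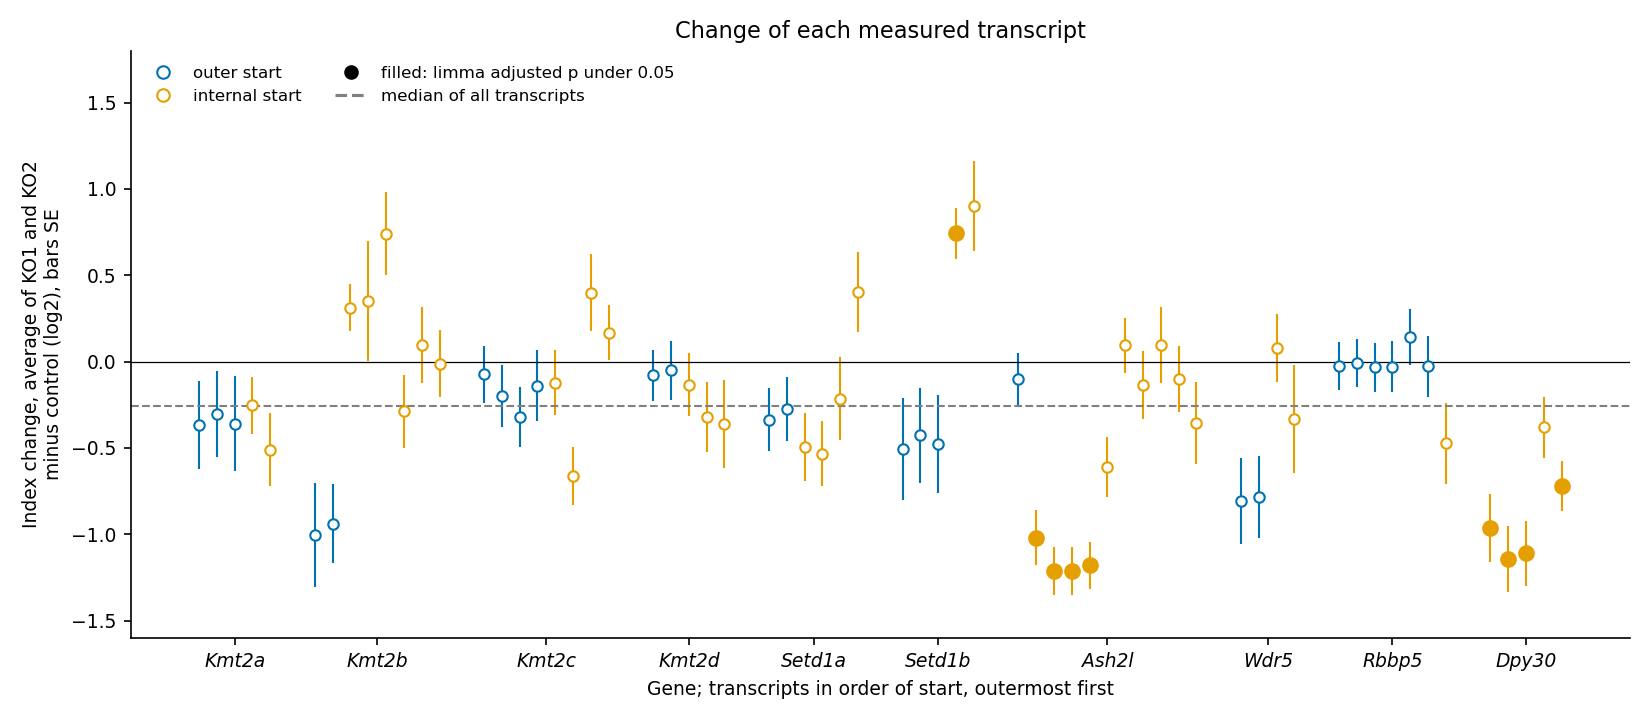
Index change of each of the 64 distinct member transcripts (average of KO1 and KO2 minus control, log2, with SE bars), grouped by gene and ordered from the outermost start, with outer starts in blue and internal starts in orange. Filled points passed the limma test, the dashed line is the median of all transcripts at -0.26, and the 9 filled points belong to Ash2l, Dpy30 and Setd1b.

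Whether outer and internal starts of the same gene changed unequally was tested on their difference, which could be fitted for 9 members and 7315 genes. In Setd1b the outer-start minus internal-start difference was 2.35 and 2.54 in KO1 and 2.41 and 2.19 in KO2, against 4.03 and 3.31 in control. All 4 knockout libraries were below both controls, as in 34.9% of all genes, and the change of -1.29 ± 0.27 did not pass (SE; limma adjusted p = 0.0651). It was -0.93 without control replicate 1, -1.65 without control replicate 2 and -0.87 with centred libraries (limma adjusted p = 0.209). In Kmt2b the difference was 6.72 and 6.76 in KO1 and 7.52 and 7.03 in KO2, against 7.79 and 8.57 in control, a change of -1.17 ± 0.29 that did not pass either (limma adjusted p = 0.076). It was -0.78 without control replicate 2, -1.56 without control replicate 1 and -0.75 with centred libraries (0.278). In Ash2l the difference was above both controls in all 4 knockout libraries, at 0.82 and 1.00 in KO1 and 1.52 and 1.54 in KO2, against 0.73 and 0.78 in control. This held for 1 of 9 members and 3.03% of all genes. The Ash2l change of 0.47 ± 0.21 did not pass (SE; limma adjusted p = 0.196). Members called numbered 0 of 9, where 0% of the 7315 genes passed in the average, and 2 of 9, Setd1b and Kmt2b, had an unadjusted p under 0.05 and a lower difference, as had 27.9% of all genes. The median change was -0.09 over the 9 members and -0.42 over all genes, and with centred libraries the members' median was 0.33.

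The knockouts were compared with each other in the same fits. KO1 against KO2 gave no called member, by gene or by transcript, as it gave no called gene or transcript in the outer-start and transcript tables. At an unadjusted p under 0.05, Ash2l was lower in KO1 than in KO2 (3.55% of all genes), and 4 member transcripts were lower and 2 higher (4.34% and 12% of all). Of the 9 outer-start values that of Ash2l had the smallest p, with KO1 0.59 ± 0.17 below KO2 (SE; limma adjusted p = 0.189). The KO1 and KO2 libraries lay on opposite sides of both controls in 2 of 9 members, Rbbp5 and Ash2l (3.49% of all genes), and in 8 of 64 member transcripts (3.8% of all).

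Promoter sequence did not enter the choice of the members. Of 32851 promoter windows in the RefSeq table, 10 belong to 7 of the genes, and Kmt2b, Setd1b and Ash2l have none there. The 10 windows held 1 to 56 CpG dinucleotides, with a median of 32, against a median of 7 over the whole table. That table was not limited to genes with a measured index, so the difference is not read as a trait of the complex. Kmt2c had the 56. TATAAA, searched on both strands, was in 0 of the 10 windows and in 13.6% of all. CCAAT was in 1 of 10 and 37.4%, and GGGCGG in 5 of 10 and 35.7%. Overlaps between motifs were not removed, several of the Dpy30 windows overlap, and a match is no evidence of binding.

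Around the core complexes, 5 lists with 60 genes held 56 with an outer-start index. In the average of both knockouts 3 of the 56 fell and none rose, a share of 5.36%, beside 14.8% of all genes. In KO2, 8 fell, a share of 14.3% beside 17.7%, and in KO1 none was called. None of these calls held with centred libraries or with 1 library omitted, where no gene of the table passed. The median change in the average was -0.36, against -0.38 over all genes. Among 15 complex-specific subunits 1 fell, with a median of -0.41. It was Paxip1, the PTIP protein of the MLL3 and MLL4 complexes. Its index was 4.30 and 4.19 in KO1 and 4.09 and 3.93 in KO2, against 5.29 and 5.42 in control, a fall of 1.23 ± 0.14 (SE; limma adjusted p = 0.0295). Every knockout library of Paxip1 lay below both controls.

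Among 8 H3K4 demethylases and their partners, with a median of -0.34, the demethylase Kdm1b fell in the average. It had 3.38 and 3.05 in KO1 and 3.36 and 3.43 in KO2, against 4.09 and 4.49 in control (-0.98 ± 0.19, SE; limma adjusted p = 0.035). Kdm5b, which removes trimethylated H3K4, passed in KO2 alone, at 6.03 and 6.08 in KO2 against 6.68 and 6.70 in control (limma adjusted p = 0.0459). Among 14 readers of H3K4 methylation, with a median of -0.34, the PHD finger protein Ing3 fell in the average, at 2.09 and 2.16 in KO1 and 2.25 and 2.01 in KO2, against 2.81 and 2.93 in control (-0.75 ± 0.16, SE; limma adjusted p = 0.0393). Ing2 and Ing3 both passed in KO2 (0.0478 and 0.0468).

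Among 7 genes listed as other H3K4 methyltransferases, whose activity on H3K4 was not checked here, the median was -0.21 and none passed in the average. Prdm9, the methyltransferase of meiotic recombination sites, passed in KO2, at 0.52 and 0.45 in KO2 against 1.93 and 1.48 in control (limma adjusted p = 0.0324). Smyd2 was at -0.69 ± 0.21 in the average (SE; 0.0809). Among 12 factors of H2B ubiquitylation and H3K79 methylation, with a median of -0.38, none passed in the average. The ubiquitin-conjugating enzyme Ube2a had the smallest p there. Its index was 1.99 and 2.00 in KO1 and 1.39 and 1.63 in KO2, against 2.30 and 2.54 in control. The ubiquitin ligase Rnf20 was at -0.46 ± 0.13 in the average (SE; limma adjusted p = 0.0674). Ube2a and Eny2, of the deubiquitylating module of SAGA, passed in KO2 (limma adjusted p = 0.0385 and 0.047).

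**Figure D4:**
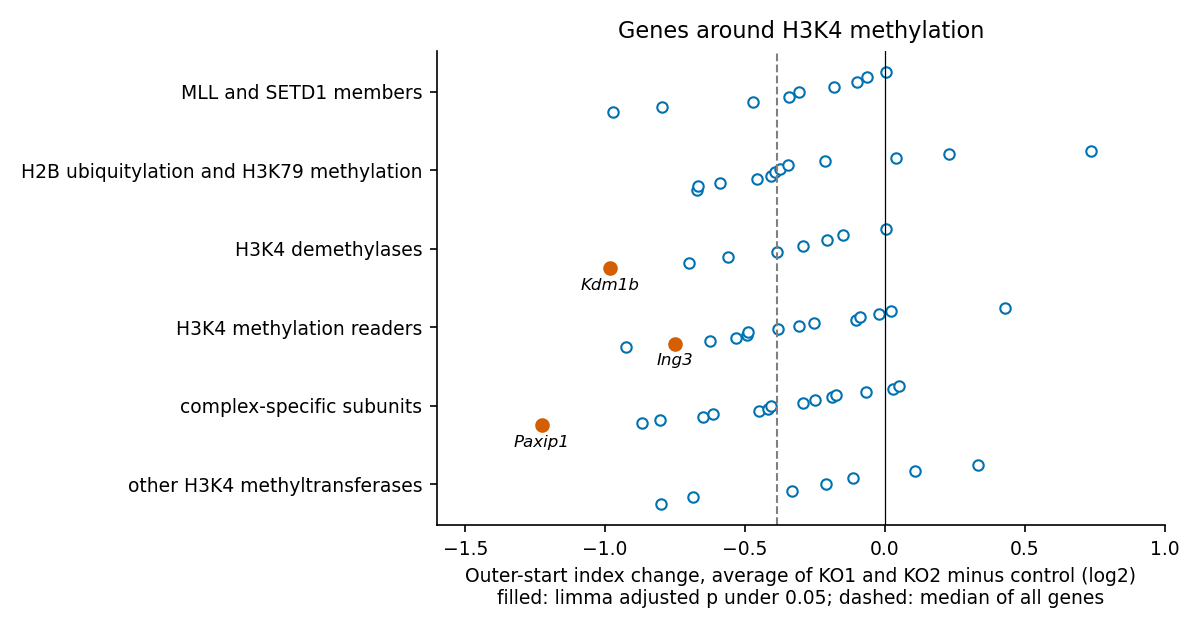
Outer-start index change (average of KO1 and KO2 minus control, log2, horizontal axis) of the 9 members and of 5 lists of genes around H3K4 methylation, with 1 point per gene. Filled points (Paxip1, Kdm1b and Ing3) passed the limma test, and the dashed line is the median of all genes at -0.38.

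The pattern most like that of Kmt2b, the member of smallest p for both knockouts together, was sought by Euclidean distance over the 6 libraries after each gene's mean was taken off. The nearest protein-coding genes were Trappc9 at a distance of 0.21, Angel1 at 0.22 and Ttc7 at 0.23.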

How the data were processed

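mNET-seq data from 6 libraries of mouse embryonic stem cells were used. The deposited table holds log2 values of an escaping index, computed by the authors, for 68473 transcripts. The submitters' processing notes name mm10 as the build and HISAT2 2.1.0, featureCounts, CASAVA and Trimmomatic 0.38 as tools. Not given in the sources used here are tool settings, index windows and the handling of strand. The design had allowed for a linear index with a pseudocount. The deposited log2 values carry an offset already, so they were tested as deposited, without rescaling between libraries. Read depth is unknown, so no counting interval or detection limit is given.

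Transcripts were matched without version to GENCODE M21 (68397 matched, 76 did not). Duplicated values within a gene entered once. Outer-start transcripts begin within 500 bases of the gene's outermost annotated start. They were averaged per gene (15956 genes), transcripts were also fitted singly (66944), and the outer-start minus internal-start difference was fitted over 7315 genes. A linear model with 1 mean per group was fitted to each whole table (R 4.3.3, limma 3.58.1, variance trend), leaving 3 residual degrees of freedom. Tests were two-sided with a Benjamini-Hochberg threshold of 0.05. The procedure was tested on simulated data. Every distinct matched transcript of the deposited table was in the fit, so no filter on low values was applied here. That table held 65 of 67 annotated member transcripts, and why others are absent is not known. Alternatives covered scaling, pseudocounts, filters, the definition of a start, pairing and leaving out each library.

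The members and gene lists were chosen with earlier results of these data known. The named genes were all 10 members, every gene of 5 lists around H3K4 methylation past the threshold (otherwise the 2 with the smallest p in the average of both knockouts), and the 3 protein-coding genes nearest in pattern to the member with the smallest p. Figures used Python 3.11.15 and matplotlib 3.10.9.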

Additional observations from a re-analysis of the deposited data

Results flagged for a closer look

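In 2 members (Rbbp5 and Ash2l), both KO1 libraries lay on 1 side of both controls and both KO2 libraries on the other. The same held for 8 member transcripts, which belong to Rbbp5, Ash2l and Kmt2b. Such a split was found in 3.49% of all genes and 3.8% of all transcripts. The test of KO1 against KO2 itself passed for none of those named here, as for 0 of 15956 genes and 0 of 66944 transcripts. The outer-start index of Rbbp5 was 0.30 higher in KO1 than in KO2 (limma adjusted p = 0.363). Its transcripts Rbbp5-201, Rbbp5-202, Rbbp5-206 and Rbbp5-207, which share their start region, had differences of 0.27, 0.31, 0.30 and 0.46 (limma adjusted p from 0.262 to 0.481). The outer-start index of Ash2l, and its only outer-start transcript Ash2l-204, was at -0.59 in KO1 relative to KO2 (0.189 among genes and 0.225 among transcripts). Ash2l-209, a short model inside the gene, was at -0.54 (0.309). The Kmt2b retained introns Kmt2b-205 and Kmt2b-207 had differences of 1.03 and -0.63 (0.202 and 0.267), in opposite directions within 1 gene.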

How the results depend on the processing

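Against 0 members called by outer-start index, some alternatives gave calls in the average of both knockouts. With protein-coding genes alone the count was 1 (Kmt2b), where 3276 of 12142 genes passed. It was 1 with the outermost start taken among protein-coding transcripts (Kmt2b, 3346 of 12265 genes) and 1 with all distinct transcripts averaged (Dpy30, 1038 of 17349). The remaining alternatives with calls were chosen after seeing the data. Taking the outermost start among measured transcripts gave 1 (Dpy30), where 14% of all genes passed. The APPRIS principal transcripts gave 2 (Ash2l and Dpy30), where 28% passed. The APPRIS choice also gave 2 in KO1 (8.75% of all genes passed) and 2 in KO2 (30.5%). There Ash2l in KO2 was at -1.09 (limma adjusted p = 0.0163), the reverse of its outermost start. Other settings and KO1 against KO2 kept 0, and leaving out each library gave 0 to 0 for every count, member transcripts and differences included. The 9 member transcripts called in the average became 0 with median centring, 0 with quantile normalization and 0 with the replicate block. They were 6 when KO1 and KO2 were pooled, where 2478 of all 66944 transcripts passed. Deviations of same-numbered libraries correlated at -0.02 to 0.03, so no shared deviation was seen. Whether same-numbered libraries were grown or prepared together is not given, and these correlations cannot tell. Of 1106 single values under alternatives, 84 lost a call (all of them among the 9 transcripts), 4 gained one and 1 reversed. The other 1017 are mostly values with no call under either setting, some of which changed sign, and say little about stability. Read depth is unknown, so values of low ratios may rest on few reads.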
